A study of Mus musculus with 6 samples.

Results

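The factors that start and extend protein synthesis were examined in lenses of newborn Celf1cKO mice, in which Cre removes an exon of Celf1. They were chosen by gene symbol alone, as genes whose symbol begins with Eif1 to Eif6 or with Eef1 or Eef2. Of the 63 symbols that matched, 6 were left out by the rule (the kinases Eif2ak1 to Eif2ak4 and the sex-chromosome genes Eif2s3x and Eif2s3y), so that 57 of the 13931 genes measured remained. RNA was sequenced from whole lenses at postnatal day 0, with 3 Celf1cKO and 3 control libraries and 2 lenses pooled in each. Celf1cKO lenses carried 1 germline null allele of Celf1 (Celf1lacZKI) and 1 floxed allele, in which Pax6GFPCre deletes an exon. This Cre line is active from the lens placode onward and also outside the lens in the pancreas. The mice were on a mixed C57BL/6 and FVB background. By the labels the control lenses were Celf1lacZKI/+, so that both groups would share the germline null allele, whereas the methods name Celf1flox mice without Cre as the usual controls. Which of these the control libraries came from is not known here, and this bears on every difference below. Values are log2 CPM, read counts scaled to the size of the library on the log2 scale, and differences are log2 fold-changes, Celf1cKO minus control.

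Translation begins when the initiation factors bring the small ribosomal subunit with the initiator tRNA to the capped end of an mRNA. The eIF4 factors bind the cap and unwind the leader, eIF3 holds the small subunit in place, eIF2 carries the initiator tRNA, and eIF1, eIF1A and eIF5 set how strictly the start codon is chosen. The large subunit then joins with the help of eIF5B, and the eEF1 and eEF2 factors add amino acids and move the ribosome along. Fiber cells of the lens make very large amounts of crystallin protein before they degrade their organelles, and Celf1 is an RNA-binding protein that recognises GU-rich sequence in mRNA, often in the 3′ end after the stop codon.

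The lenses were first checked for the deletion and for their tissue. Celf1 itself stood at 9.95, 9.94 and 9.34 log2 CPM in the control libraries and at 8.93, 7.66 and 7.83 in the Celf1cKO libraries, a fall by 1.60 on the log2 scale (SE 0.33, limma adjusted p = 0.0269). The Celf1cKO libraries lay below all control libraries, and Celf1cKO library 1 was the nearest to them. Celf1 mRNA was thus reduced and not absent, and counts per gene do not separate transcripts with the deleted exon from those without it. The paper reports that part of the Celf1 transcripts in Celf1cKO lenses still included this exon. The libraries held between 40694454 and 44387151 reads on genes. Crystallins took from 45.8% to 46.9% of the reads in control lenses and from 34.7% to 38.5% in Celf1cKO lenses. Of the fiber cell markers 10 of 12 were in the table, with a summed level of 295972 to 335774 CPM in controls and 236147 to 250285 CPM in Celf1cKO lenses. The 7 of 8 lens epithelium markers measured summed to between 1209 and 1829 CPM in controls and between 764 and 1209 CPM in Celf1cKO lenses. For retina, pigment cells, macrophages, and cornea and skin, the sums stayed under 27 CPM in every library, and the defining cornea markers Krt5, Krt12 and Trp63 and the retina markers Crx and Nrl were not analysed here. Vessel and blood markers summed to between 71.4 and 86.7 CPM in controls and between 19.99 and 83.7 CPM in Celf1cKO lenses. Whether shifts between fiber and epithelial cells took part in the differences below was not tested, and in whole lenses fewer cells of a type and less RNA per cell cannot be told apart. Reads on the Y-linked genes Ddx3y, Eif2s3y, Kdm5d and Uty were plentiful in control libraries 1 and 2 only (1955 and 2074 for Eif2s3y) and nearly absent from the other 4 (0 to 2 for Eif2s3y), so that the sexes were not balanced between the groups.

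Of the 57 factors, 8 were elevated and 1 was reduced in Celf1cKO lenses at an adjusted p under 0.05 over all genes (limma). The elevated factors were Eif1b, Eif4e2, Eif5a2, Eif1ad, Eif3d, Eif6, Eif3g and Eif5, and the reduced factor was Eif5b. Among all 13931 genes, 7.85% were called higher and 4.03% lower, against 14.0% and 1.75% of the factors. At the study's cut-offs, which add a log2 fold-change over 0.58 and an average over 1 log2 CPM, 4 factors were elevated (Eif1b, Eif4e2, Eif5a2 and Eif1ad) and Eif5b was reduced, where 4.77% of all genes were higher and 2.63% lower. In 16 factors every Celf1cKO library was above every control library, and in 7 every one was below, while 19.5% of all genes were higher and 17% lower without overlap. This split depended on the scale and the libraries, with 37 above and 2 below under scaling by total reads, and 16 above and 18 below without control library 3. Scaling by total reads moved the median log2 fold-change of all genes with an average over 1 log2 CPM to 0.23. The shares of all genes without overlap are not given here for these settings, so the 2 splits are not read as traits of the factors. The median log2 fold-change of the 57 factors was 0.09, and that of all genes with an average over 1 log2 CPM was 0.00. In size 49 of the 57 factors stayed within 0.58 of 0, which was 86.0% of them against 74.6% of all genes. Of those with an average over 1 log2 CPM it was 87.5% of the factors against 80.5% of the genes. Of the 10640 genes with an average over 1 log2 CPM, 1045 were called higher and 505 lower, against 8 and 1 of the 56 factors over it. The share of factors called was thus above both backgrounds for higher genes and below both for lower genes. The gap for higher genes was smaller among these more expressed genes, and the numbers were small on both sides.

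**Figure D1:**
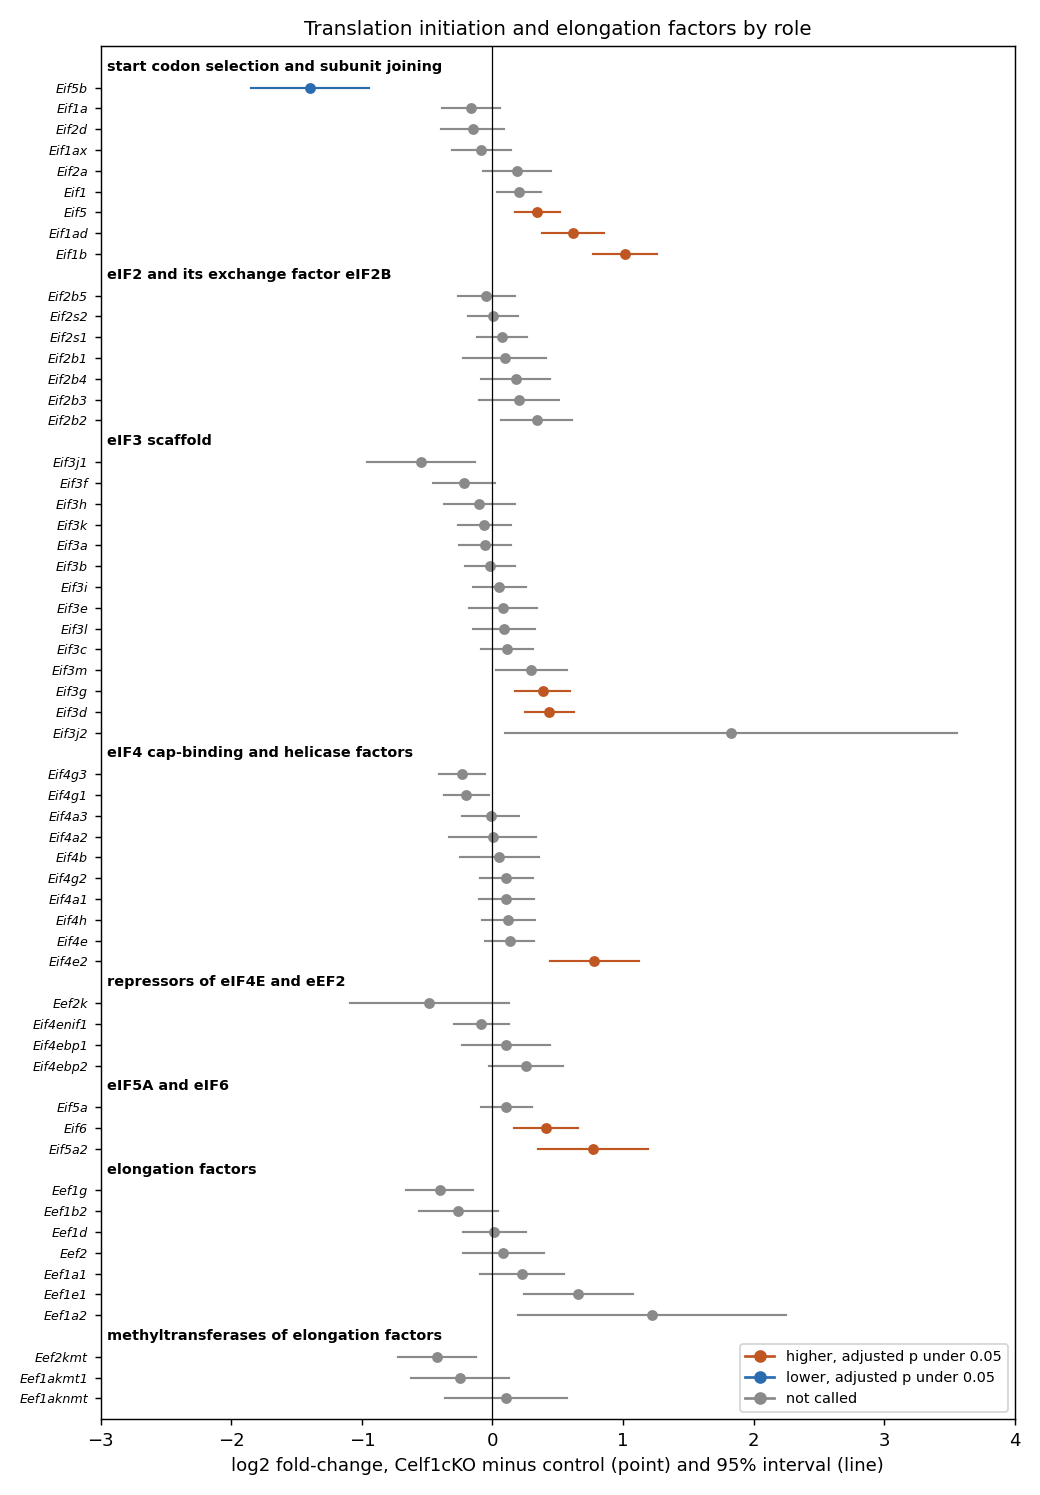
The log2 fold-change (Celf1cKO minus control, horizontal axis) of each of the 57 factors is drawn as a point with its 95% interval as a line, grouped by role. Eif5b at -1.40 lies far to the left of the other factors, the 8 elevated factors lie between 0.34 and 1.01, and most grey points, which were not called, lie close to 0.

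The sequences ahead of 5 of the called factors are shown here because most of the elevated factors had motifs in common that Eif5b lacked. Each run holds 100 bases from RefSeq on GRCm38.p6 that end before both the RefSeq start and the GENCODE gene model, whichever lies farther upstream, written 5′ to 3′ in the direction of the gene, and capitals mark the motifs named below.
Eif5b (chr1:37997910-37998009, plus strand): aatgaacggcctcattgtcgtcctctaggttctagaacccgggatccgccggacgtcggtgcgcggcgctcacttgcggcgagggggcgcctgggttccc
Eif4e2 (chr1:87213811-87213910, plus strand): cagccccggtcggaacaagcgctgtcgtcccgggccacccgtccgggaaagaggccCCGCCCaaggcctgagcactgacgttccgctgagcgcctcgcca
Eif5a2 (chr3:28781176-28781275, plus strand): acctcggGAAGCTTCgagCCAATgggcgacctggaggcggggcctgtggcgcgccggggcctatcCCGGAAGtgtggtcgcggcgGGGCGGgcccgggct
Eif3d (chr15:77970825-77970924, minus strand): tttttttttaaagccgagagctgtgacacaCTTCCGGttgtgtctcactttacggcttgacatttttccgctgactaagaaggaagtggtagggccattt
Eif3g (chr9:20898624-20898723, minus strand): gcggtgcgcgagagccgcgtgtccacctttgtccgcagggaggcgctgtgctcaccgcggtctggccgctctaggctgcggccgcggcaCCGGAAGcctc

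A motif of this kind was the core bound by ETS transcription factors (CCGGAAG on either strand). Over the whole RefSeq promoter, from 250 bases before to 50 bases after the start, it was present in 6 of the 7 elevated factors that had an entry, namely Eif1ad, Eif1b, Eif3d, Eif3g, Eif4e2 and Eif5a2, and absent from Eif5. In Eif4e2 it lies outside the 100 bases printed. The promoter of Eif5b held none. Of the 37 factors with an entry that were not called, 10 held it. Entries were found for 45 of the 57 factors (Eif6 had none), and 16 of these, or 35.6%, held the ETS core, against 18.7% of the promoters of 10827 genes of the table, 21.3% of the 883 elevated genes and 11.2% of the 447 reduced genes. The E-box (CACGTG), the site of MYC and related factors, was present in 28.9% of the factors and 11.6% of all genes, and in 2 of the 7 elevated factors, Eif1b and Eif5a2. The other motifs searched on both strands were the GC box (GGGCGG, 77.8% of the factors against 67.7%), the CCAAT box (CCAAT, 33.3% against 43.0%), the TATA box (TATAAA, 8.89% against 8.91%), the cyclic AMP response element (TGACGTCA, 2.22% against 3.45%), a heat shock element (GAANNTTC, 8.89% against 6.92%) and the YY1 core (AAGATGGC, 8.89% against 4.85%). The GC box too was present in 6 of the 7 elevated factors with an entry and absent from Eif5b. It was common elsewhere, in 29 of the 37 factors not called, 73.5% of the elevated genes and 64.0% of the reduced genes. None of these motifs contains another. These matches are a description, no test was made of them, and a promoter without the letters can still be bound.

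GU-rich sequence after the stop codon is shown next, because it is the kind of sequence that Celf1 recognises. The core searched was TGTTTGT (in capitals) on the coding strand of the longest coding transcript, and each run of 30 bases is written 5′ to 3′ from GENCODE M21 on GRCm38.
Eif1b (chr9:120495200-120495229, plus strand): tttgttgtgagTGTTTGTtgttagttttat
Eif5a2 (chr3:28794534-28794563, plus strand): aagaaacctcaTGTTTGTtgttatgttttt
Eif5 (chr12:111545531-111545560, plus strand): actgtatcttgTGTTTGTgtaccccctccc

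Of the 9 called factors these were the 3 that held the core, with 1 copy in Eif1b, 5 in Eif5a2 (the first is printed) and 1 in Eif5. All 3 were elevated, but so were 8 of the 9 called factors, and the other elevated factors lacked the core. The factors that held it and were not called had log2 fold-changes from -0.55 (Eif3j1) to 1.83 (Eif3j2). Eif5b had none in 3866 bases. Of 55 factors with such a region, 13 held the core, or 23.6% with a median length of 633 bases, against 26.6% of 12948 genes with a median length of 989 bases. The share in the factors was thus close to that of all genes, over shorter regions. Per kb of such sequence the core was not denser in the factors, with 0.281 copies against 0.318 in all genes. Whether Celf1 binds at the copies of the core was not measured.

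The factors of start codon selection and subunit joining held the largest changes that were called in each direction, with 3 of 9 elevated and 1 reduced. Eif5b, which encodes the GTPase that joins the large to the small ribosomal subunit, was at 10.09, 10.31 and 10.10 log2 CPM in control lenses and at 9.23, 8.53 and 8.54 in Celf1cKO lenses. The groups did not overlap, Celf1cKO library 1 lay between the controls and the other two Celf1cKO libraries, and the same order held for Celf1. The mean fell by 1.40 on the log2 scale (SE 0.19, 95% interval -1.85 to -0.95, limma adjusted p = 0.0108), which is 2.63-fold lower. Eif5b had 6.84% to 7.74% of all reads on the 57 factors in control lenses and 2.32% to 3.60% in Celf1cKO lenses. Per kb of exon, with all annotated exons as the length, it ranked 6 among the 57 factors in controls and 18 in Celf1cKO lenses. Its exons overlap those of Rev1 on the other strand over 1643 bases. The difference of Rev1 was 0.30 (adjusted p = 0.205), and Txndc9, the neighbour on the other side, rose by 0.70 (adjusted p = 0.0216), so that neither moved downward with Eif5b.

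Eif1b, a paralog of the start codon gatekeeper eIF1, was at 5.47, 5.44 and 5.38 log2 CPM in controls and at 6.25, 6.54 and 6.54 in Celf1cKO lenses. Its levels did not overlap, and the elevation of 1.01 (SE 0.11, limma adjusted p = 0.00888) corresponds to 2.02-fold. It had the smallest adjusted p of the 57 factors. Eif1, whose coding sequence is 81.3% identical to that of Eif1b, had a log2 fold-change of 0.20 that was not called (adjusted p = 0.113). The log2 ratio of Eif1b to Eif1, taken up after its values were seen, was between -2.53 and -2.43 in controls and between -1.91 and -1.54 in Celf1cKO lenses, a difference of 0.81. Taken per kb of exon, this log2 ratio was -1.58 in controls and -0.77 in Celf1cKO lenses. Its level depends on the length used, which was 1125 bases for Eif1b and 2098 for Eif1, against 1035 and 1322 in the longest coding transcripts. No window of 150 bases was shared between transcripts of Eif1b and any other gene.

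Eif1ad, which encodes a protein related to eIF1A, was at 4.24, 4.10 and 4.29 log2 CPM in controls and at 4.81, 4.79 and 4.89 in Celf1cKO lenses, an elevation of 0.62 (SE 0.10, limma adjusted p = 0.0153). Eif5, the activator of the GTPase step of eIF2, was at 8.75, 8.68 and 8.74 in controls and at 9.04, 9.10 and 9.06 in Celf1cKO lenses. Its replicates were the tightest of the elevated factors in Celf1cKO lenses (SD 0.03), and the elevation of 0.34 (SE 0.07, adjusted p = 0.0285) was the smallest that was called. Eif5 and Eif5b act one after the other in initiation, and they moved in opposite directions. The log2 ratio of Eif5b to Eif5 was 1.34, 1.63 and 1.36 in controls and 0.19, -0.56 and -0.52 in Celf1cKO lenses, so that Eif5b reads exceeded those of Eif5 in every control library and fell below them in Celf1cKO libraries 2 and 3. The other 5 factors of this role, Eif1, Eif1a, Eif1ax, Eif2a and Eif2d, were not called and lay between -0.17 and 0.20.

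**Figure D2:**
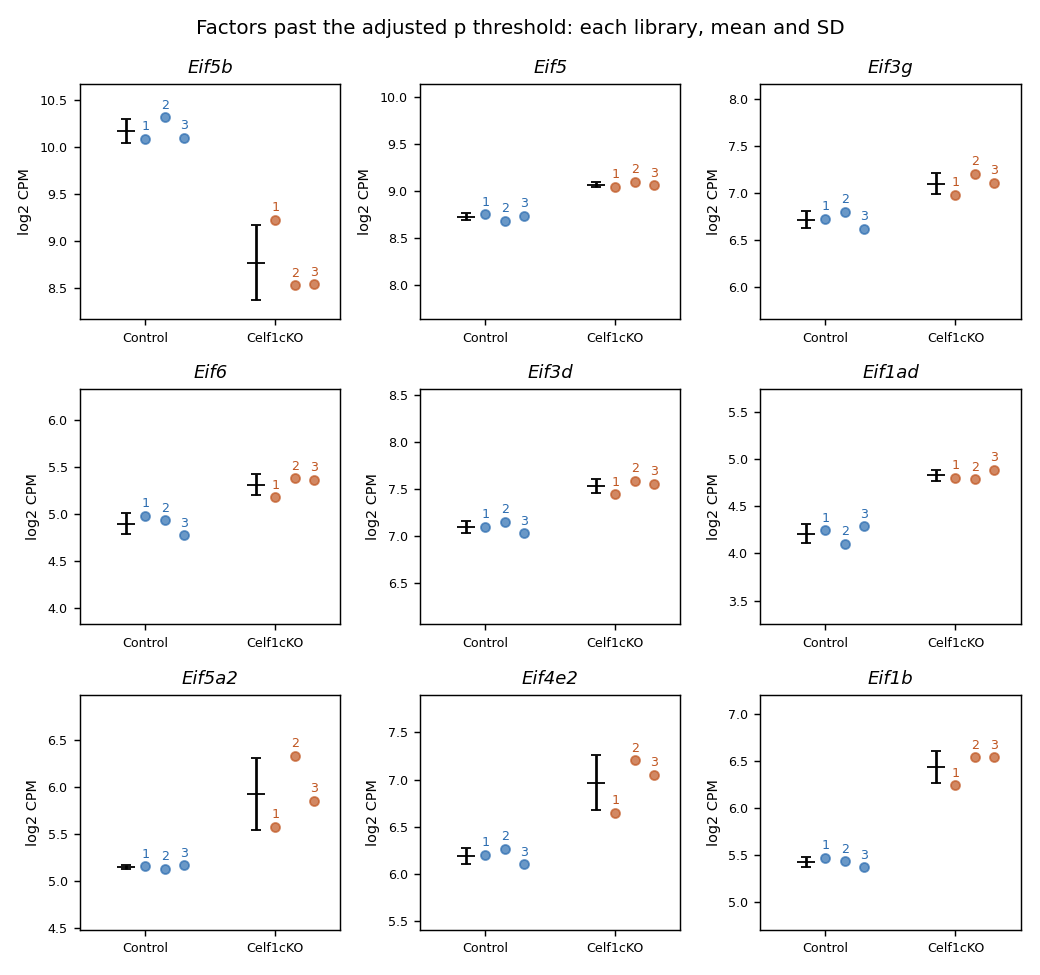
Each panel gives the log2 CPM (vertical axis, every panel spans the same range of 2.5 units) of a called factor in the control and Celf1cKO libraries, numbered by replicate, with the mean and SD drawn to the left of each group. In all 9 panels the groups do not overlap, and Celf1cKO library 1 is usually the nearest to the controls.

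Celf1cKO library 1 was the nearest of the Celf1cKO libraries to the control mean in 8 of the 9 called factors, the exception being Eif1ad, where library 2 was. The same held for 81.1% of the 1655 genes called in the whole table. Without this library 14 factors were called (11 higher, 3 lower), where 3032 of all 13931 genes were called. Leaving out any other library lowered the count of factors. Without control library 1, control library 3 or Celf1cKO library 2, 2 factors were called higher and 1 lower each time, namely Eif1b, Eif1ad and Eif5b. In these fits 693, 522 and 488 of all genes were called. Without control library 2 or Celf1cKO library 3 none was called by limma, with 15 and 12 factors at an unadjusted p under 0.05, and only 1 gene of the whole table was called in either fit. Against control library 3 alone, the control without Y-linked reads, the differences were -1.33 for Eif5b, 1.07 for Eif1b, 0.87 for Eif4e2, 0.75 for Eif5a2 and 0.33 to 0.54 for the other 5 called factors, and with 1 control library limma called none (15 at an unadjusted p under 0.05). This comparison was chosen after seeing the data.

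None of the 7 genes of eIF2 and its exchange factor eIF2B examined here was called by limma, nor by voom, and 1 was at an unadjusted p under 0.05. Eif2s3x and Eif2s3y, left out by the rule, were not among them. Eif2s1, which encodes the subunit of eIF2 that stress kinases phosphorylate, was at 6.84, 6.94 and 6.87 log2 CPM in controls and at 6.88, 7.06 and 6.93 in Celf1cKO lenses. These groups overlapped, and the difference of 0.08 had a 95% interval of -0.12 to 0.27. Eif2s2 and the eIF2B subunits had log2 fold-changes from -0.05 (Eif2b5) to 0.34 (Eif2b2, adjusted p = 0.101), with a median of 0.09 over the 7 genes. Eif2b2, which encodes a regulatory subunit of the exchange factor, was the only one of them without overlap between the groups, at 4.85 to 5.18 in controls and 5.36 to 5.48 in Celf1cKO lenses.

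Of the 14 eIF3 genes, 2 were elevated and 12 were not called. Eif3d, a subunit that can itself bind the cap of certain mRNAs, was at 7.09, 7.15 and 7.03 log2 CPM in controls and at 7.44, 7.59 and 7.55 in Celf1cKO lenses, an elevation of 0.44 (SE 0.08, limma adjusted p = 0.0188). Eif3g, an RNA-binding subunit, was at 6.72, 6.80 and 6.62 in controls and at 6.98, 7.20 and 7.11 in Celf1cKO lenses, an elevation of 0.38 (SE 0.09, adjusted p = 0.0391). Neither gene overlapped between the groups. The exons of Eif3d overlap those of the antisense gene Gm17638 over 2151 bases. The large subunits Eif3a, Eif3b and Eif3c, which form the core of the complex, had log2 fold-changes of -0.06, -0.02 and 0.11, and the others of this role apart from Eif3j1 and Eif3j2 lay between -0.22 (Eif3f) and 0.30 (Eif3m). The elevation was thus found in 2 subunits of a complex whose median log2 fold-change was 0.07.

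The genes of eIF3 subunit j differed from the rest and were chosen for description once their values were known. Eif3j1 was at 6.26, 6.28 and 5.98 log2 CPM in controls and at 6.01, 5.46 and 5.41 in Celf1cKO lenses, a log2 fold-change of -0.55 that was not called (limma adjusted p = 0.0861) but was called with the replicate number as a block (adjusted p = 0.0399). Celf1cKO library 1 lay within the control range. Eif3j2, a copy of Eif3j1 on chromosome 18, was at 0.62, 0.51 and 0.67 in controls and at 0.48, 3.46 and 3.34 in Celf1cKO lenses. Celf1cKO library 1 was therefore at the control level, libraries 2 and 3 were nearly 3 log2 units above it, and the difference of 1.83 (SE 0.74) was not called (adjusted p = 0.148). The reads behind Eif3j2 ranged from 51 to 534 per library. All 786 coding bases of Eif3j1 align to identical bases of the 792 of Eif3j2, 77.1% of the 150-base windows of the Eif3j2 transcript occur in Eif3j1, and reads that fit both were discarded before counting, so that the level of each gene rests on the bases in which they differ. Gm3650, a gene beside Eif3j2, was also highest in Celf1cKO libraries 2 and 3, at -0.68 and -0.90 log2 CPM, against -2.84 in Celf1cKO library 1, -3.33 and -3.35 in control libraries 1 and 3, and no read in control library 2. It had at most 28 reads in a library.

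**Figure D3:**
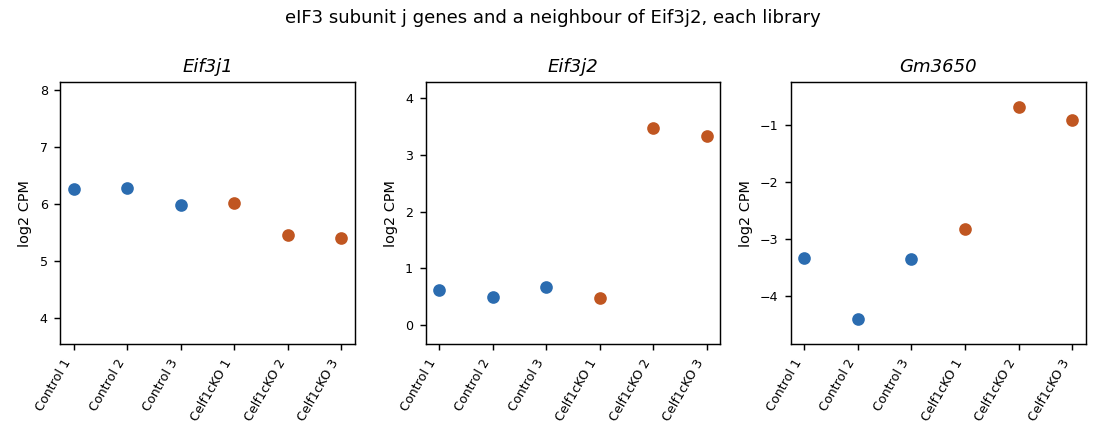
The log2 CPM of Eif3j1, of its near-identical copy Eif3j2 and of Gm3650 is drawn for each of the 6 libraries (blue controls, orange Celf1cKO), with the same span of 4.6 log2 units on each vertical axis. Celf1cKO library 1 lies with or near the controls in each panel, and Celf1cKO libraries 2 and 3 lie lower for Eif3j1 and higher for Eif3j2 and Gm3650.

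Of the 10 eIF4 cap-binding and helicase genes, only Eif4e2 was called. Eif4e2, a cap-binding protein that competes with eIF4E and represses translation, was at 6.20, 6.26 and 6.10 log2 CPM in controls and at 6.65, 7.21 and 7.05 in Celf1cKO lenses. The groups did not overlap, and the elevation of 0.78 (SE 0.15, limma adjusted p = 0.0194) is 1.72-fold. Eif4e, the main cap-binding factor, was at 7.69, 7.88 and 7.77 in controls and at 7.92, 7.95 and 7.87 in Celf1cKO lenses. Its groups overlapped slightly, and the difference of 0.13 (95% interval -0.06 to 0.32) was not called. The log2 ratio of Eif4e2 to Eif4e, per kb of exon, was -1.91 in controls and -1.26 in Celf1cKO lenses. Its level, though not its difference between the groups, depends on the length used. All annotated exons gave 7497 bases for Eif4e2 and 6008 for Eif4e, and the longest coding transcripts 2869 and 4991. Gigyf2, a partner of Eif4e2 in repression, had a log2 fold-change of -0.05.

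Eif4a1, the RNA helicase of the complex, was at 9.11, 9.17 and 8.95 log2 CPM in controls and at 9.12, 9.25 and 9.18 in Celf1cKO lenses. Eif4a2, its closest paralog, was at 7.57, 7.37 and 7.42 in controls and at 7.77, 7.34 and 7.24 in Celf1cKO lenses. Both overlapped between the groups, with differences of 0.11 (95% interval -0.10 to 0.32) and 0.00 (-0.33 to 0.34). Of the 150-base windows of Eif4a1, 56.6% also occur in the pseudogene Eif4a-ps4, so that its count is uncertain. Eif4g1, the scaffold that ties the cap to eIF3, was at 8.95, 8.92 and 8.86 in controls and at 8.67, 8.74 and 8.71 in Celf1cKO lenses, without overlap. Its log2 fold-change of -0.20 was not called (adjusted p = 0.123), and neither was that of its paralog Eif4g3, -0.23 (adjusted p = 0.0867). Under scaling to total reads the difference of Eif4g1 was 0.03, so that no direction is given for it. Eif4g2, which serves initiation without eIF4E, had a difference of 0.10, and Eif4a3 (a part of the exon junction complex), Eif4b and Eif4h (helpers of the helicase) lay between -0.01 and 0.12.

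The repressors of eIF4E and eEF2 were not called, and none of the 4 was at an unadjusted p under 0.05 or called by voom. Eif4ebp1, which holds eIF4E away from the scaffold when mTOR is inactive, was at 4.05, 3.98 and 4.28 log2 CPM in controls and at 3.998, 4.39 and 4.23 in Celf1cKO lenses. Eif4ebp2, which acts in the same way, was at 5.26, 5.22 and 5.22 in controls and at 5.24, 5.63 and 5.60 in Celf1cKO lenses. Both overlapped between the groups, with differences of 0.10 (95% interval -0.24 to 0.44) and 0.25 (-0.03 to 0.54). Without Celf1cKO library 1, the difference of Eif4ebp2 was 0.38 and was called (adjusted p = 0.0252). Eif4enif1, which carries eIF4E to the nucleus and to granules, had a difference of -0.08, and Eef2k, the kinase that inactivates eEF2, one of -0.48 (adjusted p = 0.255) on 93 to 152 reads per library. Eif4ebp3 was not analysed here.

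Of eIF5A and eIF6, 2 of 3 genes were elevated. Eif5a2, the less abundant form of the hypusine-bearing factor that relieves stalled ribosomes, was at 5.16, 5.13 and 5.17 log2 CPM in controls and at 5.58, 6.33 and 5.85 in Celf1cKO lenses. The controls spanned 0.04 and the Celf1cKO libraries 0.75 log2 units, and the elevation of 0.77 (SE 0.18, limma adjusted p = 0.0365) is 1.71-fold. Eif5a, the abundant form, was at 8.61, 8.57 and 8.40 in controls and at 8.63, 8.64 and 8.62 in Celf1cKO lenses, a difference of 0.11 (95% interval -0.09 to 0.30) that was not called. Eif6, which keeps the large ribosomal subunit from joining too early, was at 4.98, 4.93 and 4.77 in controls and at 5.18, 5.38 and 5.36 in Celf1cKO lenses. Its elevation of 0.41 (SE 0.11, adjusted p = 0.0473) was not called with the replicate number as a block (adjusted p = 0.0555), without the variance trend (0.0953), or with the values median centred (0.0531), quantile normalized (0.0577) or scaled by median of ratios (0.0503).

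None of the 7 elongation genes was called by limma or by voom, with 3 at an unadjusted p under 0.05. Eef1a1, which delivers aminoacyl-tRNA to the ribosome, was at 12.14, 12.28 and 11.90 log2 CPM in controls and at 12.39, 12.33 and 12.29 in Celf1cKO lenses. The groups lay side by side without overlap, and the difference was 0.23 (95% interval -0.09 to 0.55, adjusted p = 0.300). Eef2, which moves the ribosome to the next codon, was at 10.72, 10.83 and 10.43 in controls and at 10.87, 10.65 and 10.71 in Celf1cKO lenses, a difference of 0.08 (95% interval -0.23 to 0.39) with overlap. Eef1a2, the form of muscle and neurons, was close to the limit of detection at -2.12, -1.93 and -0.99 in controls and -0.84, 0.02 and -0.56 in Celf1cKO lenses, on 7 to 47 reads per library. The difference of 1.22 (SE 0.44) was not called (adjusted p = 0.113).

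The exchange factor of eEF1A is made of the products of Eef1b2, Eef1d and Eef1g. Their log2 fold-changes were -0.26, 0.01 and -0.41, and none was called. Eef1g was at 9.15, 9.24 and 8.94 log2 CPM in controls and at 8.85, 8.61 and 8.65 in Celf1cKO lenses, without overlap (limma adjusted p = 0.0560), but 41.7% of its 150-base windows also occur in Gm4366. Eef1e1, which despite its symbol encodes a part of the complex of aminoacyl-tRNA synthetases, was at 2.99, 3.01 and 3.19 in controls and at 3.38, 3.88 and 3.91 in Celf1cKO lenses. Its difference of 0.66 (SE 0.18) was not called (adjusted p = 0.0544) but was called with the replicate block (adjusted p = 0.0381). Of the 3 methyltransferases of elongation factors none was called by limma or voom and 1 was at an unadjusted p under 0.05, with log2 fold-changes from -0.43 (Eef2kmt, which modifies eEF2, adjusted p = 0.0709) to 0.10.

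Levels of the factors were compared per kb of exon. Eef1a1 was the most abundant at 10.79 log2 CPM per kb in controls, followed by Eef2 at 8.93, Eef1g at 7.73, Eif5a at 7.28 and Eif4a1 at 6.96. The gaps between the first 3 exceeded the spread of the control replicates. Levels and ranks depend on the length used, which was that of all annotated exons. This gave 2600 bases for Eef1g and 4334 for Eif4a1, and the longest coding transcripts 1864 and 1774. The order of Eef1g and Eif4a1 is therefore uncertain, and parts of both also occur in other genes (41.7% and 56.6% of their windows). Below the first 3 the values of neighbouring factors lay closer together, and Eif4a1, Eif5b and Eif1 overlapped over the control libraries. The lowest were Eef1a2 at -2.74, Eef2k at -1.05 and Eif3j2 at -0.65. The first 2 ranks were the same in Celf1cKO lenses, and Eif1b moved from rank 20 to rank 12 while Eif5b moved from 6 to 18.

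**Figure D4:**
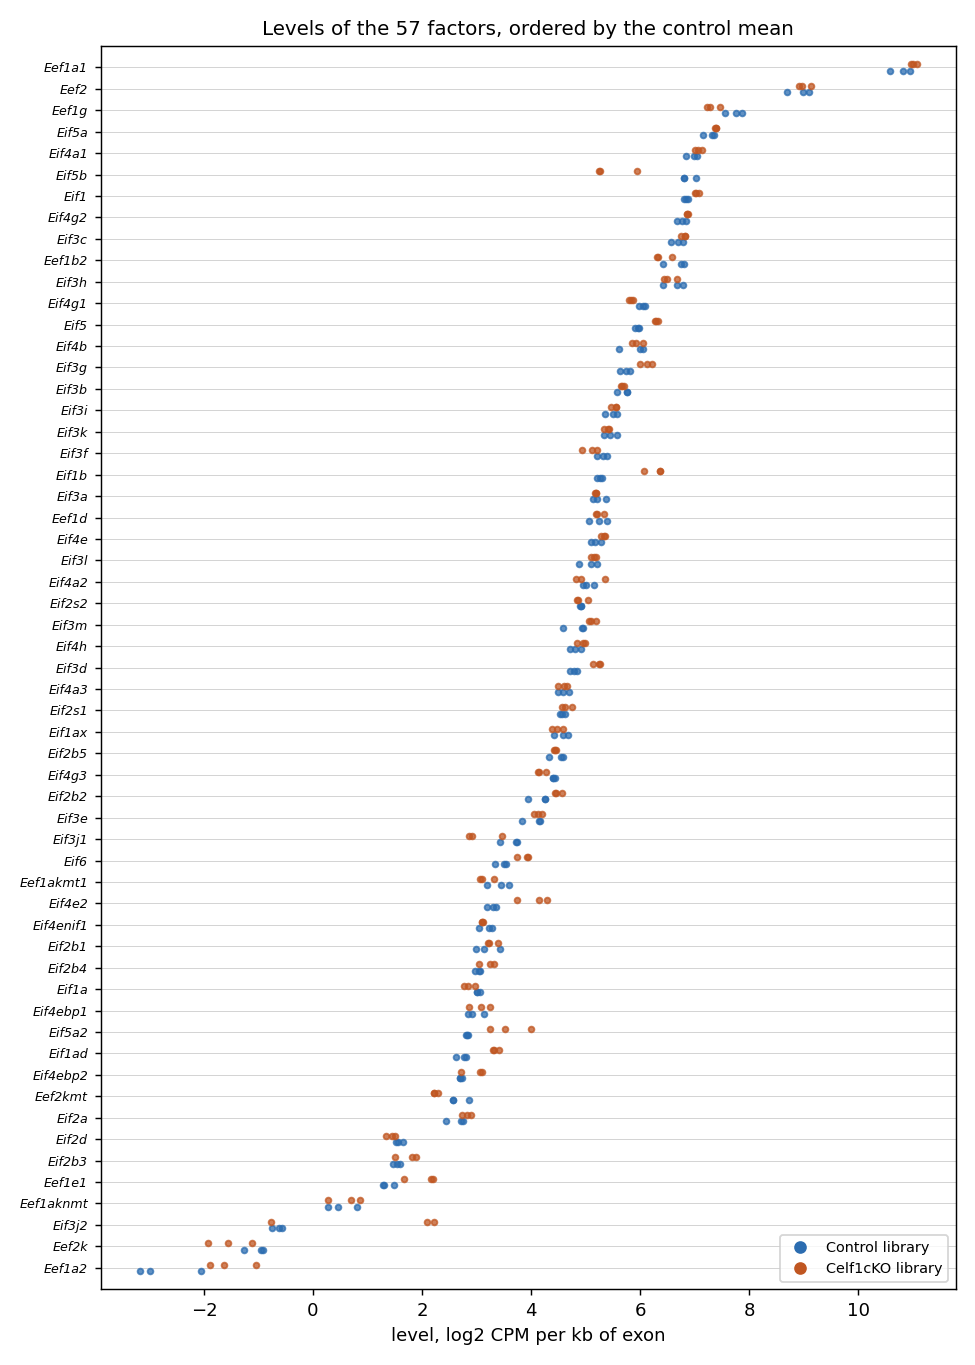
Levels in log2 CPM per kb of exon (horizontal axis) are drawn for each library, with factors ordered by their control mean and blue and orange points for control and Celf1cKO libraries. The levels span from Eef1a2 at -2.74 to Eef1a1 at 10.79 in controls, and only in a few factors, Eif5b and Eif1b among them, do the colours separate clearly.

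As a share of all reads on genes, the 57 factors together had 1.50%, 1.50% and 1.36% in control lenses and 1.76%, 1.75% and 1.75% in Celf1cKO lenses. The groups did not overlap (two-sided exact permutation test, p = 0.1, which is the smallest that 3 against 3 libraries can give). Crystallins took up a smaller share of the Celf1cKO reads. Of the reads on genes other than crystallins the factors had 2.76%, 2.83% and 2.54% in controls and 2.86%, 2.67% and 2.71% in Celf1cKO lenses, with overlap (exact permutation p = 0.8). Eef1a1 made up 27.0% to 29.4% of the reads on the factors in controls and 31.9% to 32.3% in Celf1cKO lenses.

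This choice of scale also set the number of calls. The deposited values are scaled so that the median log2 fold-change of genes with an average over 1 log2 CPM is 0.00, whereas scaling by total reads moved that median to 0.23. On that scale 24 factors were called higher and 1 lower, the 9 factors reported above among them. Over all 13931 genes 2911 were called higher and 329 lower there, so that 89.8% of the calls were higher, against 66.0% on the deposited scale. Under scaling by total reads the median of the 57 factors was 0.32. This was 0.09 above the 0.23 of all genes with an average over 1 log2 CPM, as on the deposited scale.

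Ratios within a library do not depend on that choice. The log2 ratio of Eif5a2 to Eif5a was -3.45, -3.44 and -3.23 in controls and -3.06, -2.31 and -2.76 in Celf1cKO lenses, a difference of 0.66 without overlap (exact permutation p = 0.1, adjusted p = 0.4 over 4 ratios). The ratio of Eef1a2 to Eef1a1 was between -14.26 and -12.89 in controls and between -13.23 and -12.31 in Celf1cKO lenses (exact permutation p = 0.2, adjusted p = 0.4). Those of Eif4a2 to Eif4a1 and of Eif4ebp1 to Eif4e differed by -0.11 and -0.03 (exact permutation p = 0.8 and adjusted p = 0.8 for both). With 3 libraries against 3, none of these tests could have passed 0.05.

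Other genes of translation and its control were counted from a list of 47, of which 45 were in the table, including the eIF2 kinases, poly(A)-binding and release factors and the mTOR pathway. Of these, 9 were elevated and 5 reduced, that is 20% and 11.1%, against 7.85% and 4.03% of all 13931 genes. Their median log2 fold-change was -0.06. The list was chosen with earlier results of these data known, so these shares are a description only. Fmr1, a repressor that stalls ribosomes, rose by 0.81 (SE 0.12, limma adjusted p = 0.0130). Impact, which inhibits activation of the eIF2 kinase Gcn2, rose by 0.79, and Eif2ak2, the eIF2 kinase PKR, by 0.58. Ddx3x, a helicase of initiation, rose by 0.59, Larp1, which binds mRNAs of the translation machinery, by 0.61, Larp4b by 0.52, and Paip2, which blocks the poly(A)-binding protein, by 0.55. Rheb, the activator of mTOR complex 1, rose by 0.61, whereas Tsc2, which switches Rheb off, fell by 0.47 and Rptor, a part of that complex, fell by 0.59. Pabpc1, the poly(A)-binding protein, fell by 0.49, and Hbs1l, which rescues stalled ribosomes, by 0.45. The regulatory subunits of the phosphatase of eIF2 went both ways, with Ppp1r15b rising by 0.46 and Ppp1r15a falling by 0.74. Adjusted p lay between 0.0130 and 0.0476 for these 14 genes, and with the replicate block those of Ppp1r15a and Pabpc1 were 0.0539 and 0.0501. Under scaling by total reads 13 of the 45 genes were higher and 0 lower by limma, against 2911 and 329 of all 13931 genes. There the reduced genes Tsc2, Ppp1r15a, Hbs1l, Rptor and Pabpc1 kept a negative log2 fold-change, with adjusted p from 0.0829 to 0.159, and none of the 5 calls remained.

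ATF4 is a transcription factor whose mRNA is translated more when eIF2 is phosphorylated, and a list of 14 genes held Atf4 and genes it is known to regulate. By limma 5 were elevated (Ddit3, Atf3, Psat1, Atf5 and Atf4) and 0 reduced, with a median of 0.62. Over all genes 7.85% were called higher and 4.03% lower. With the replicate block 8 were elevated and 1 reduced, against 1311 and 812 of all 13931 genes. In direction 11 were positive and 3 negative. The negative ones were Phgdh (-1.38, limma adjusted p = 0.0573) and Slc7a11 (-1.02, adjusted p = 0.110), both without overlap, and Nupr1 (-0.19). The summed level of the list overlapped, at 1689 to 2303 CPM in controls and 1944 to 2148 CPM in Celf1cKO lenses. Ddit3, a transcription factor of the stress response, was at 2.33, 2.37 and 2.29 log2 CPM in controls and at 4.02, 4.49 and 4.35 in Celf1cKO lenses, 3.87-fold higher (adjusted p = 0.00855). Atf4 was at 7.72, 7.83 and 7.88 in controls and at 8.07, 8.24 and 8.31 in Celf1cKO lenses (adjusted p = 0.0385). The groups did not overlap for either gene. None of the 7 genes of eIF2 and eIF2B examined here was called. Of the 11 factors among the 57 whose mRNAs begin with the terminal oligopyrimidine tract regulated by mTOR, none was called by limma or voom, with 2 at an unadjusted p under 0.05 and a median of 0.01. Phosphorylation of eIF2 and translation itself were not measured in these samples.

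**Figure D5:**
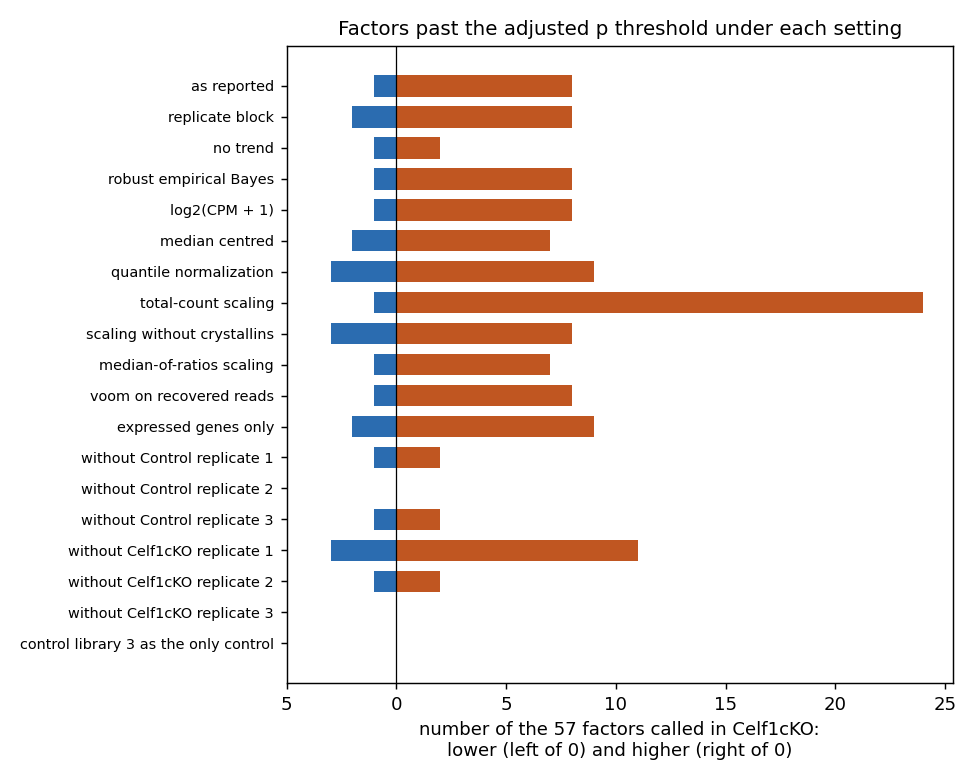
Bars give how many of the 57 factors were called higher (right of 0) and lower (left of 0) in Celf1cKO lenses under each setting of the analysis, with the reported setting on top. Scaling to total reads gave 24 higher and 1 lower, and leaving out control replicate 2 or Celf1cKO replicate 3, or keeping control library 3 alone, gave 0.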

How the data were processed

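RNA-seq libraries of whole newborn lenses (3 Control, 3 Celf1cKO) were analysed from a table of 13931 genes. Per the study's methods and processing notes, stranded paired-end reads were trimmed, aligned to GRCm38.p6 with STAR 2.7.8a, kept if uniquely mapped and counted with featureCounts 2.0.0, and genes over 0.2 CPM were kept. The strand setting of the counting is not given in the sources used here. The authors deposited log2 CPM values for each library after edgeR's normalization, with a prior count of 2, and an average log2 CPM, which was used for the expression cut-off. The fold-change, p-value and FDR columns of the authors' own comparison were not used. Whole reads were recovered for 100% of the values within 0.05 reads, and gave 40694454 to 44387151 reads per library. Intervals and floors of counting error were not computed, since the spread between libraries was the error used.

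Groups came from the labels. Nothing says that the pools came from separate litters, so p-values measure the spread between these pools. The log2 CPM values of all genes were compared with limma 3.58.1 in R 4.3.3 (trended prior variance, no block, prior degrees of freedom 3.4), with Benjamini-Hochberg adjustment over all genes and adjusted p under 0.05. The study's cut-offs of 0.58 (log2 fold-change) and 1 (average log2 CPM) were added for a stricter count. The procedure was tested on simulated data. Read shares and ratios were compared with two-sided exact permutation tests. Same-numbered libraries deviated together (correlations 0.302, 0.417 and 0.348 over 10640 genes), so the replicate number was also fitted as a block, although the study describes no pairing.

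The members, role groups, pathway lists and tests were chosen with earlier results of these data known. Values in every library are given for factors past the threshold and for a list named whatever its values (Eef1a1, Eef1a2, Eef2, Eif2s1, Eif4e, Eif4a1, Eif4a2, Eif4g1, Eif4ebp1, Eif4ebp2, Eif4ebp3, Eif5a, Eif5a2, Eif6 and Celf1), and other translation genes are named only if past it. Eif3j1, Eif3j2, Gm3650, Eef1e1, Eef1g, Eif2b2, Gigyf2, the neighbours of Eif5b, the ATF4 genes, the ratios other than the 4 tested and the promoter and 3′ motifs were taken up after values were seen. Positions, exon lengths and 3′ sequence came from GENCODE M21, in which 13928 identifiers were found, and promoters from RefSeq on GRCm38.p6. Coding sequences were aligned with Biopython 1.88, and shared windows of 150 bases were sought in all transcripts. Alternatives were log2(CPM + 1), 5 other scalings, robust empirical Bayes, a fit without the variance trend, the replicate block, limma voom on recovered reads, expressed genes only and each library left out. Control library 3 as the only control was added after seeing the data. Figures were drawn with matplotlib 3.10.9.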

Additional observations from a re-analysis of the deposited data

How the results depend on the processing

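Of the 9 factors called, each kept its direction under the 11 alternatives that kept all libraries and with each of the 6 libraries left out. Under the 11 alternatives, 89 of 99 values stayed under the threshold, and 6 of the 10 lost fell without the variance trend. The replicate block removed the calls of Eif6, Ppp1r15a and Pabpc1, added those of Eef1e1, Eif3j1 and Gspt2 and changed no other call among the 57 factors and the 45 other translation genes. Over all genes it took the calls from 1655 to 2123. The number of factors past the adjusted p threshold (9) was 3 without the trend and 25 with total-count scaling, and from 0 to 14 with each library left out. Over all genes 2911 were called higher and 329 lower with total-count scaling, and from 1 to 3032 were called with each library left out. At the study's cut-offs the number (5) was 3 without the trend and 9 with total-count scaling, and from 0 to 8 with each library left out. For the other translation genes (14, of which 9 higher) it was 1 without the trend, 13 with total-count scaling, all higher, and from 0 to 17 with each library left out. With control library 3 as the only control, which assumes that this library varies like the Celf1cKO group, limma called 0 of 57 factors, 0 at the cut-offs and 0 of the other translation genes, with 15 factors at an unadjusted p under 0.05, and the log2 fold-changes of the 9 factors ranged from -1.33 to 1.07 in the same directions.

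Factors without overlap numbered 23 (16 higher, 7 lower), 39 with total-count scaling (37 higher, 2 lower), and from 24 to 35 with each library left out, the most without Celf1cKO replicate 1. The shares of all genes without overlap are not given for these other settings. The difference in the factors' share of reads, 0.296 percentage points, was 0.0403 of the reads outside crystallins. The log2 ratio of Eef1a2 to Eef1a1 differed by 0.99, or 0.17 as log2(CPM + 1). That of Eif4ebp1 to Eif4e, -0.03, was 0.0634 without Control replicate 3 and from -0.143 to 0.0743 with each library left out. Among the factors not called, Eef1a1, Eif4e, Eif5a, Eif4a1, Eif2s1 and Eif4ebp2 were called with total-count scaling. The 9 factors had at least 636 reads in every library, whereas Eef1a2 had 7 to 47. The causes of these changes were not tested.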
